A study of Mus musculus with 6 samples.

Results

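The Hox genes were taken as the protein-coding genes named Hox followed by a cluster letter from a to d and a paralog number. The deposited table held 39 of them, among 21930 protein-coding genes and 46983 genes in all. The Hoxa cluster had 11 members, Hoxb 10, Hoxc 9 and Hoxd 9. RNA-seq had been run on wild type C57BL/6J aortic valves from pups at postnatal day 2 (PND2, 3 libraries) and from 4-month-old adults (3 libraries). Each library was a biological replicate made from the pooled valves of 5 to 6 animals, no agent or transgene was used, and the ages are the only labelled difference. Library totals ran from 23810507 to 38994657, and a single read on a transcript of 1 kb was worth 0.0256 to 0.0420 RPKM (reads divided by the exonic length and by the library's total).

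Hox genes encode homeodomain transcription factors that give cells of the embryo their position along the head-to-tail axis. They sit in clusters on separate chromosomes, and their order along each cluster matches the order of the body levels at which they are used, so that low paralog numbers mark anterior levels and high numbers mark posterior ones. The outflow tract and its valves receive cells from the cardiac neural crest and the second heart field, both of which carry anterior Hox genes in the embryo. Adult connective tissue is known to keep a record of its level of origin in the Hox genes it transcribes.

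The valves held Hox transcripts from the anterior and middle parts of the clusters, and almost none from the posterior ends or from Hoxc. A mean of at least 1 RPKM at either age was reached by 11 members, among them Hoxa2 to Hoxa5, Hoxb2 to Hoxb4, Hoxd4, Hoxd8 and Hoxd9. Hoxd3 was lower but had more than 3 reads, the limit of detection used here, in all 6 libraries. A further 8 passed 3 reads in some libraries, 11 had between 1 and 3 reads in their best library, and 8 had no reads in any library. In single libraries 15 to 17 members were detected, and 12 were detected in all 6. The same 12 had over 0.1 RPKM in every library.

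Even the most abundant members were modest transcripts. Hoxa2 had the highest mean at PND2, and 46.0% of protein-coding genes had a higher mean RPKM there. At 4 months the figures were 47.4% for Hoxa2 and 47.3% for Hoxa3. Summed over all 39 members, the Hox genes came to 28.3, 31.8 and 30.6 RPKM at PND2 and to 39.7, 26.4 and 28.5 RPKM at 4 months. The ages overlapped, and the means were 30.2 ± 1.77 and 31.5 ± 7.15 RPKM (SD, n = 3 libraries per age).

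**Figure D1:**
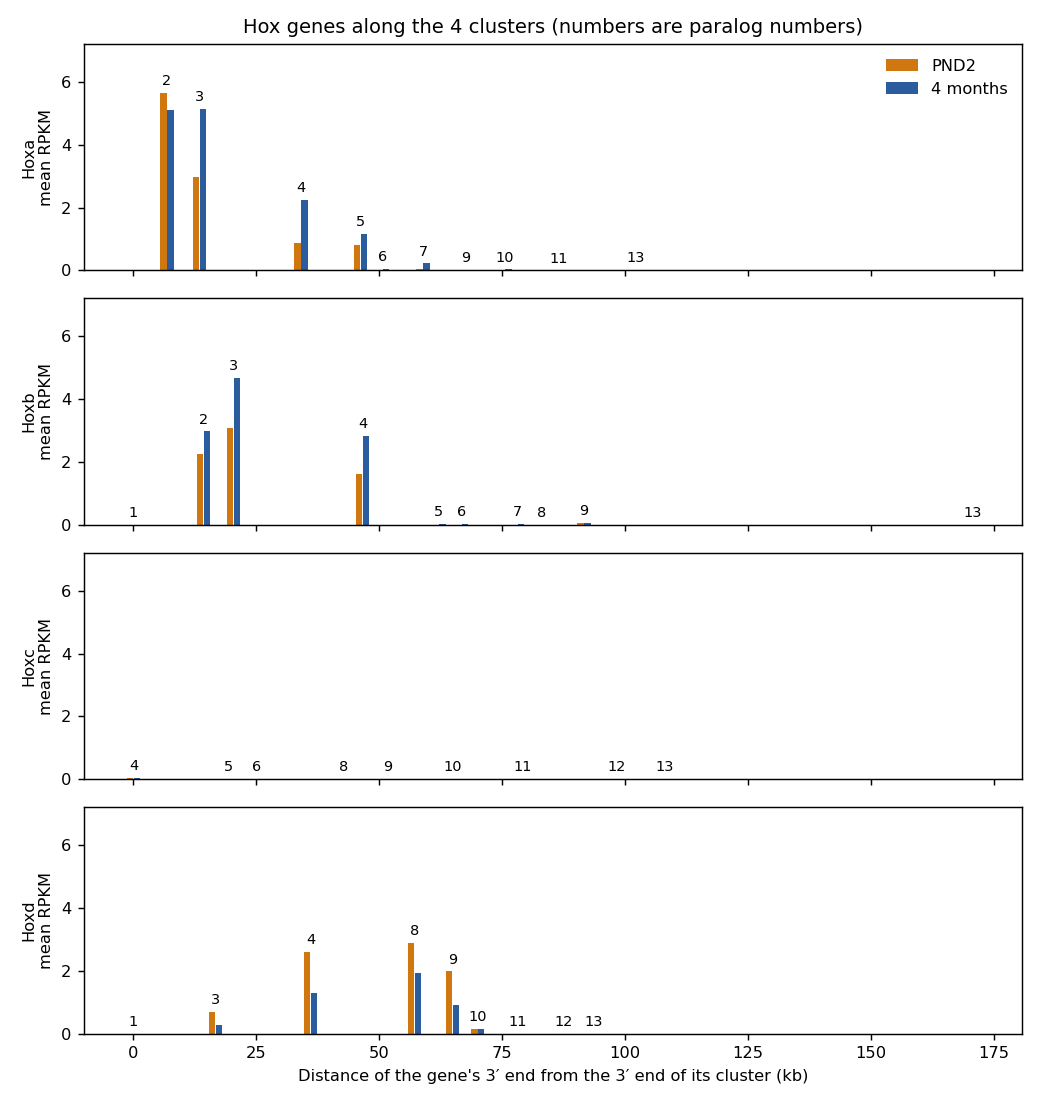
Mean RPKM of the Hox genes reported (vertical axis, linear, n = 3 libraries per age) against the distance of the gene's 3′ end from the 3′ end of its cluster (horizontal axis, kb), with a panel per cluster, bars for PND2 in orange and for 4 months in blue, and paralog numbers above the bars. Means of at least 0.5 RPKM ended at Hoxa5, at Hoxb4 and at Hoxd9, with low bars beyond them for Hoxa7 and Hoxd10, and no Hoxc gene had a bar above 0.1 RPKM.

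In the map of Hoxa, Hoxb and Hoxd the level dropped within a few genes along each cluster. On chromosome 6, Hoxa5 (chr6:52201754-52204587, minus strand, mm10) averaged 0.818 RPKM at PND2 and 1.16 RPKM at 4 months. Its neighbour Hoxa6 had at most 3 reads in any library, and Hoxa7 beyond it was detected in 4 libraries with up to 29 reads (0.423 RPKM). On chromosome 11, Hoxb4 (chr11:96318267-96321638, plus strand) averaged 1.60 and 2.82 RPKM, whereas Hoxb5 had at most 4 reads. Hoxb1, at the anterior end of the same cluster, had 1 read in a single PND2 library.

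Hoxd was read from its middle. Hoxd1, its lowest-numbered gene, had no reads, and expression ran from Hoxd3 to Hoxd9 with a low value for Hoxd10, which had 23, 4 and 2 reads at PND2 and 4, 4 and 18 reads at 4 months. Hoxc, on chromosome 15, was close to silent, with 13, 5 and 6 reads over its 9 genes at PND2 and 4, 15 and 0 reads at 4 months. The 8 members without a read were Hoxa11, Hoxb13, Hoxc10, Hoxc11, Hoxc12, Hoxd1, Hoxd12 and Hoxd13. For them 3 reads, the most that a count of 0 allows in a library, would be 0.0304 to 0.122 RPKM. Such limits cover counting error only. Of the 16 posterior members (paralog groups 9 to 13), Hoxd9 was the one with a mean of at least 1 RPKM.

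The sequence just upstream of 4 expressed members is shown because their levels set the picture in the 3 active clusters: Hoxa2 and Hoxd8 were the most abundant members of their clusters at PND2, and Hoxb4 and Hoxd9 changed with age in opposite directions. Each is written 5′ to 3′ on the gene's strand, from RefSeq (GRCm38.p6), up to the base before the gene's annotated start. Capitals mark matches, on either strand, to 4 short motifs: CCAAT, TGATNNAT for Pbx-Hox dimers, TGACAG for Meis proteins and AGGTCA for retinoic acid receptor half-sites. TATAAA was also searched, and motifs could overlap. Hoxa2 lies at chr6:52164832-52165081 (minus strand), Hoxb4 at chr11:96318017-96318266, Hoxd8 at chr2:74704365-74704614 and Hoxd9 at chr2:74697513-74697726 (all plus strand).
Hoxa2: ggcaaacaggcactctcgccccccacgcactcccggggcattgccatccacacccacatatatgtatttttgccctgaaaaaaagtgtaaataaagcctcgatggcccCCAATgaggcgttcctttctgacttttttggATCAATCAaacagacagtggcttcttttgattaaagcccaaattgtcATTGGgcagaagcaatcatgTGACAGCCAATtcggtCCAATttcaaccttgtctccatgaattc
Hoxb4: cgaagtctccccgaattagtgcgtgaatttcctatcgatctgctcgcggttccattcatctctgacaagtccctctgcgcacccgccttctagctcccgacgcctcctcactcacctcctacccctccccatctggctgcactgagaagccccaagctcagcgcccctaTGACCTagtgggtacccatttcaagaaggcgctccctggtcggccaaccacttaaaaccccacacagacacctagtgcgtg
Hoxd8: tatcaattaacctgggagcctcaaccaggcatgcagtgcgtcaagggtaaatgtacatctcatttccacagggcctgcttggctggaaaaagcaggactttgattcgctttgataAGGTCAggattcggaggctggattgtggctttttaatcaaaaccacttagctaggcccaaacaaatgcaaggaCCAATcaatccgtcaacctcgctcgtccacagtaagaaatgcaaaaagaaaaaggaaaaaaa
Hoxd9: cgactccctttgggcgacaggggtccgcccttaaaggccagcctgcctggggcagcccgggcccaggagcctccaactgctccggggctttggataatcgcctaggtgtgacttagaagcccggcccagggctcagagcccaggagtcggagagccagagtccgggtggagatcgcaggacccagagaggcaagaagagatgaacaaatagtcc

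The Hoxa2 stretch held 4 CCAAT matches, a Pbx-Hox match and a Meis match, the Hoxb4 stretch held a single retinoic acid half-site, the Hoxd8 stretch held a half-site and a CCAAT match, and the Hoxd9 stretch held none. RefSeq promoters (250 bases before to 50 after the start) were at hand for 22 of the 39 members, as 24 promoters. Motifs, GC content and CpG were counted in the 250 bases before the start only. CCAAT occurred there in 14 of these 24 (58.3%) and in 33.8% of all 32851 promoters. AGGTCA occurred in 25.0% against 14.0%, TGATNNAT in 16.7% against 7.68%, TATAAA in 16.7% against 12.4%, and TGACAG in 8.33% against 15.9%. Hox promoters had a median GC content of 58.6%, against 52.4% for all promoters, and a ratio of observed to expected CpG of 0.721 against 0.374. These matches describe the letters in the window and do not mark bound sites.

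With 3 libraries against 3, 13 members had enough signal to be tested, meaning that they reached 0.1 RPKM in no fewer than 3 libraries. They were compared by limma on log2(RPKM + 0.1), 2-sided, with p-values adjusted over all 25903 genes that passed the same filter. Adding 0.1 shrinks the fold changes of weakly expressed genes. The 26 members left out never exceeded 0.342 RPKM in a library. At an adjusted p under 0.05, Hoxa4 and Hoxb4 rose, Hoxd4 and Hoxd9 fell, and 9 members did not pass. Across all genes tested, 35.8% were called in either direction, 14.7% as higher at 4 months and 21.1% as lower, so 4 of 13 (30.8%) is close to the background. Over all genes the calls divided into 3810 higher and 5463 lower, and into 4601 and 4129 with median scaling. The median log2 fold change of the 13 was 0.35, against -0.14 for all genes tested, and -0.02 for all genes after median scaling. The libraries being pools, p-values measure the spread between pools. In bulk tissue, fewer cells of a type and less RNA per cell cannot be told apart.

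**Figure D2:**
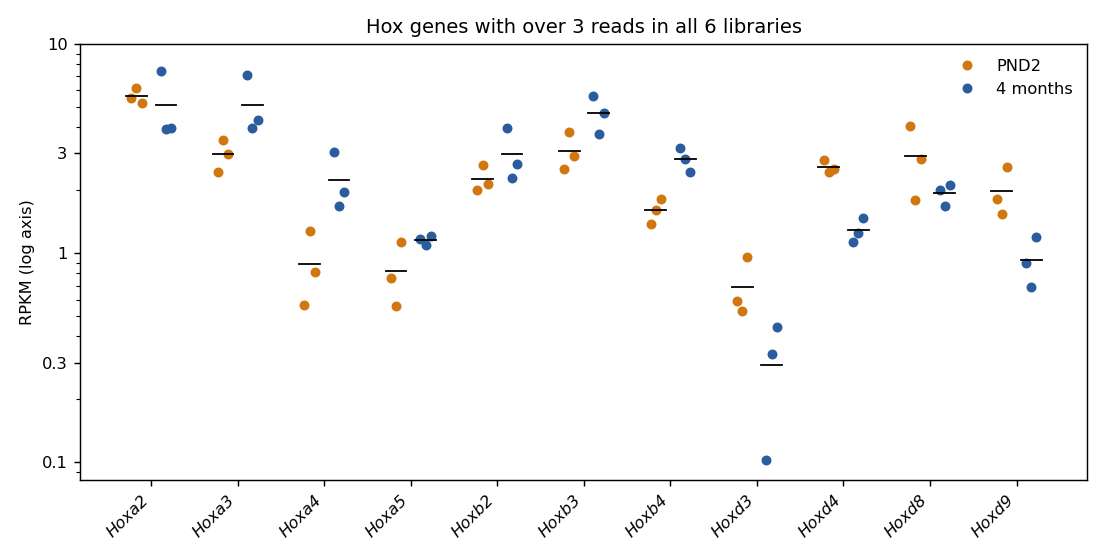
RPKM in each library (vertical axis, log scale) for Hox genes with over 3 reads in all 6 libraries, with PND2 in orange, 4 months in blue and a black line at the mean of each age (n = 3). The ages are separated without overlap for Hoxa3, Hoxa4, Hoxb4, Hoxd3, Hoxd4 and Hoxd9.

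The plot of single libraries separates members whose ages overlapped from those whose ages did not. No overlap was seen for 6 of the 13, with Hoxa3, Hoxa4 and Hoxb4 higher at 4 months and Hoxd3, Hoxd4 and Hoxd9 higher at PND2. Of all genes tested, 50% did not overlap. Fitted folds over 2, with 0.1 added to each RPKM, and an adjusted p under 0.05 were found for Hoxa4, higher at 4 months, and Hoxd9, lower. Hoxd4 fell just short on this scale (log2 fold change -0.96), although its mean RPKM at PND2 was 2.02 times that at 4 months. The background for that call was 8.72% of genes higher and 8.47% lower.

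Hoxa2 (chr6:52162417-52164831), the selector gene of the second pharyngeal arch, had 5.55, 6.17 and 5.22 RPKM at PND2. At 4 months it had 7.39, 3.90 and 3.97 RPKM, with replicate 1 above and the other two below every PND2 library. The change did not pass (log2 fold change -0.21, SE 0.26, limma adjusted p = 0.577). Hoxa3 (chr6:52169062-52213336), needed for derivatives of the third arch, had 2.43, 3.47 and 2.99 RPKM at PND2 and 7.07, 3.99 and 4.31 RPKM at 4 months. All 4-month values lay above all PND2 values, yet the test missed its threshold (0.74, SE 0.26, limma adjusted p = 0.0645). It passed when libraries were scaled by median ratios (0.86, adjusted p = 0.0297). On exons free of overlap it did not pass (0.86, limma adjusted p = 0.0986), and leaving out a library gave adjusted p-values up to 0.158. Other genes, among them 5730596B20Rik and Hoxaas2, overlap exons of Hoxa3.

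Reads on Hoxa3 came from the exons nearest its 3′ end. The 1681-base last exon (chr6:52169062-52170742) carried 6.27, 8.87 and 6.95 RPKM at PND2 and 17.1, 9.74 and 10.1 RPKM at 4 months. An inner exon of 649 bases (chr6:52172121-52172769), free of overlap with other genes, carried 3.87, 6.41 and 6.16 RPKM and then 14.8, 5.82 and 10.8 RPKM. The distal exons, between chr6:52199151 and chr6:52213336, held 1 read in each of 2 libraries and none in the others. Nearly all reads assigned to Hoxa3 thus lay in its proximal exons.

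Hoxa4 (chr6:52189671-52191753) rose. It had 0.563, 1.27 and 0.815 RPKM at PND2 and 3.06, 1.69 and 1.95 RPKM at 4 months, so its lowest 4-month value lay above its highest PND2 value. The log2 fold change was 1.26 (SE 0.36, limma adjusted p = 0.0304), from a mean of 0.884 ± 0.361 to 2.23 ± 0.727 RPKM (SD, n = 3).

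The first exon of Hoxa4 (chr6:52191178-52191753, 576 bases) overlaps no other gene. It had 1, 0 and 1 reads at PND2 and 26, 6 and 5 reads at 4 months. Relative to library totals the summed reads were 20.3 times as many at 4 months, with an exact 95% interval from 5.23 to 174. The interval covers counting error only, and it takes reads as independent although both mates of a fragment may count. Fitted on this exon alone, Hoxa4 had a limma log2 fold change of 2.31 (adjusted p = 0.0126). On this exon only the 4-month libraries reached 0.1 RPKM, so Hoxa4 entered that fit through the age where it was higher. The fit is therefore no separate support for the rise. The call on the whole gene was lost without PND2 replicate 1 (adjusted p = 0.073), without PND2 replicate 3 (0.080) and without 4-month replicate 1 or 3 (0.090 and 0.070).

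Hoxa5, which is needed for lung and tracheal development, had 0.765, 0.559 and 1.13 RPKM at PND2 and 1.17, 1.10 and 1.21 RPKM at 4 months. The 4-month libraries were alike and the ages overlapped narrowly (log2 fold change 0.50, SE 0.30, limma adjusted p = 0.239). Hoxa7 was near the limit of detection, with 0, 1 and 9 reads at PND2 and 4, 29 and 17 reads at 4 months (1.08, SE 0.59, limma adjusted p = 0.198). On its exons free of the antisense gene Hoxaas3 it had no reads at PND2 and 4, 13 and 12 reads at 4 months, at least 10.6-fold more when the 3 PND2 libraries together are given 3 reads. These exons were picked after their values were seen, and no test is attached to them.

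The 3 Hoxb members tested were all higher on average at 4 months. Hoxb2 (chr11:96350525-96354012), a hindbrain gene, had 2.00, 2.64 and 2.14 RPKM at PND2 and 3.97, 2.28 and 2.67 RPKM at 4 months, with overlapping ages (log2 fold change 0.35, SE 0.26, limma adjusted p = 0.327). Hoxb3 (chr11:96323326-96347930) had 2.54, 3.80 and 2.91 RPKM and then 5.64, 3.71 and 4.66 RPKM, with 4-month replicate 2 just under the highest PND2 value (0.58, SE 0.23, limma adjusted p = 0.0886). Median scaling brought Hoxb3 past the threshold (0.70, adjusted p = 0.0403). The antisense gene Hoxb3os overlaps both. Exons that touch no other gene held 16.2% of the exonic bases of Hoxb2 and 43.9% of those of Hoxb3. Exons that overlap in part were left out whole. On exons free of overlap neither passed, at 0.78 for Hoxb2 and 0.33 for Hoxb3 (limma adjusted p = 0.113 and 0.531).

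Hoxb4, a regulator of blood stem cell renewal as well as of axial identity, rose. It had 1.38, 1.61 and 1.82 RPKM at PND2 and 3.19, 2.82 and 2.45 RPKM at 4 months, with no overlap. Its log2 fold change was 0.78 (SE 0.22, limma adjusted p = 0.0278), from 1.60 ± 0.223 to 2.82 ± 0.371 RPKM (SD, n = 3). No other gene overlaps its exons. Leaving out PND2 replicate 1 or 2 gave adjusted p-values of 0.061 and 0.067, and leaving out 4-month replicate 1 or 2 gave 0.087 and 0.075.

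In Hoxd every tested member was lower on average at 4 months. Hoxd3 (chr2:74711927-74748442), related to Hoxa3 and Hoxb3, had 97, 68 and 117 reads at PND2 and 16, 33 and 54 reads at 4 months, or 0.594, 0.532 and 0.954 RPKM against 0.102, 0.331 and 0.445 RPKM. The ages did not overlap, but the test did not pass (log2 fold change -1.09, SE 0.45, limma adjusted p = 0.102).

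Hoxd4 (chr2:74711929-74729160) fell, and it was the member whose call held whichever library was left out, with a highest adjusted p of 0.0384. It had 2.80, 2.45 and 2.53 RPKM at PND2 and 1.14, 1.25 and 1.46 RPKM at 4 months. The highest 4-month value was well under the lowest PND2 value, and the means were 2.59 ± 0.186 and 1.28 ± 0.167 RPKM (SD, n = 3; log2 fold change -0.96, SE 0.21, limma adjusted p = 0.0113). Hoxd3 and Hoxd4 share a first exon in the annotation, and a read-through gene, Gm28230, covers both. The exons of Hoxd4 that overlap no other gene hold 831 bases, with few reads, at 30, 5 and 21 against 12, 11 and 0. There the log2 fold change of -1.07 did not pass (limma adjusted p = 0.348).

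Hoxd8 (chr2:74704615-74707933) varied most among the PND2 libraries, with 4.07, 1.80 and 2.83 RPKM there and 2.00, 1.68 and 2.13 RPKM at 4 months (log2 fold change -0.49, SE 0.31, limma adjusted p = 0.258). Hoxd9 (chr2:74697727-74700208), a posterior gene better known from the limbs and lower trunk, fell. It had 1.82, 1.53 and 2.59 RPKM at PND2 and 0.902, 0.688 and 1.20 RPKM at 4 months, with no overlap. The log2 fold change was -1.02 (SE 0.30, limma adjusted p = 0.0369), from 1.98 ± 0.547 to 0.929 ± 0.255 RPKM (SD, n = 3). Both of its exons are free of other genes. The call was lost without PND2 replicate 1 or 3 (adjusted p = 0.068 and 0.122), without 4-month replicate 1 or 2 (0.081 and 0.105) and with median scaling (0.0555).

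**Figure D3:**
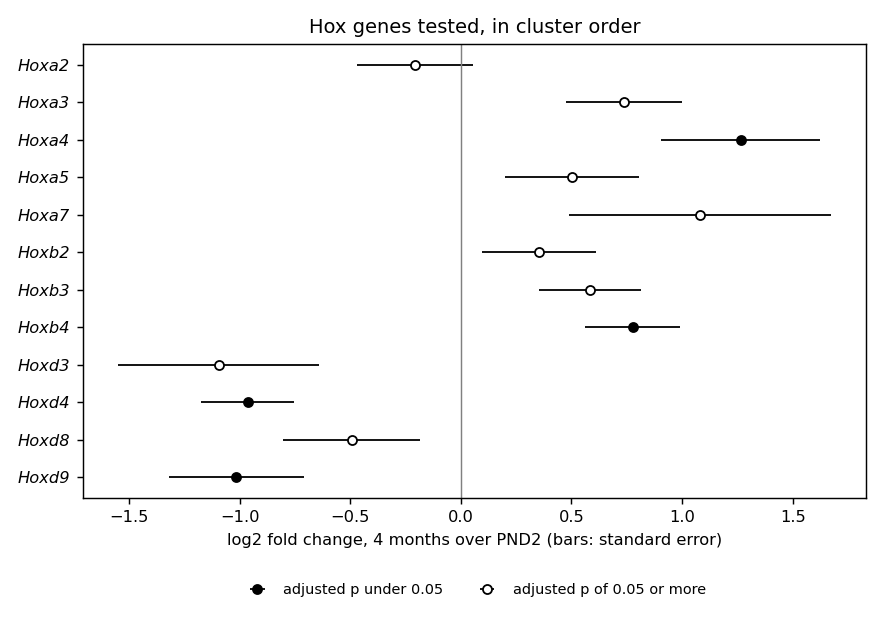
Log2 fold change from PND2 to 4 months (horizontal axis) of the Hox genes tested with limma, in cluster order, with bars for the standard error and filled points for an adjusted p under 0.05. All 3 Hoxb points lie right of 0 and all 4 Hoxd points lie left of it, while Hoxa members lie on both sides.

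The plot of fold changes in cluster order shows the split by cluster. All 3 tested Hoxb members had positive values and all 4 tested Hoxd members had negative values, and both statements also held after quantile normalization. Median scaling shifts every gene by the same amount, smaller than any of these values, so it could not change their signs. Of the 6 tested Hoxa members 4 were positive under all 3 scalings. Hoxb summed to 5.94, 8.10 and 7.0 RPKM at PND2 and to 12.9, 8.91 and 9.87 RPKM at 4 months, a ratio of means of 1.51. Hoxd summed to 9.62, 6.39 and 8.95 RPKM and then to 4.20, 4.05 and 5.58 RPKM, a ratio of 0.554. Neither cluster's sums overlapped between the ages. Hoxa sums did overlap, at 12.6 to 17.2 RPKM and 13 to 22.5 RPKM. No p is attached to these sums, because with 3 against 3 an exact permutation test cannot go below 0.1. The members are not all separate measurements. Hoxb2 and Hoxb3 both overlap Hoxb3os, with 16.2% and 43.9% of their exonic bases in exons that touch no other gene. Hoxd3 and Hoxd4 overlap each other and Gm28230, with 22.7% and 28.2% in such exons. Reads shared by Hoxd3 and Hoxd4 can enter the Hoxd sums and shares for both genes.

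**Figure D4:**
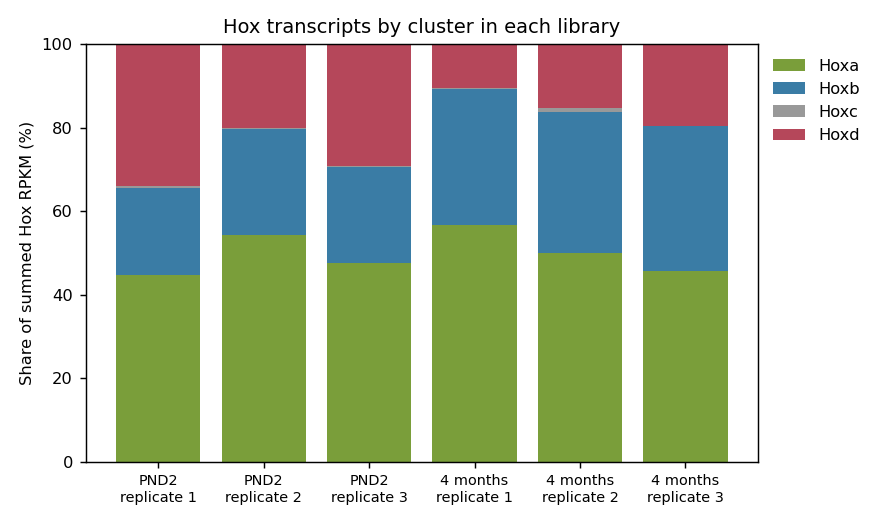
Share of the summed Hox RPKM held by each cluster (vertical axis, %, stacked from 0 to 100) in each of the 6 libraries. The Hoxd share ran from 20.1 to 34.0% at PND2 and from 10.6 to 19.6% at 4 months, and the Hoxc share stayed under 1%.

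Shares within a library do not depend on its total, and the stacked shares show the same shift. Hoxb held 21.0, 25.5 and 22.9% of the summed Hox RPKM at PND2 and 32.6, 33.7 and 34.7% at 4 months. Hoxd held 34.0, 20.1 and 29.3% and then 10.6, 15.3 and 19.6%. Hoxa stayed near the middle, at a mean of 48.8% and 50.8%. Grouped by paralog number, the anterior genes (groups 1 to 3) held 62.7% at PND2 and 64.1% at 4 months, the central genes (4 to 8) 29.7% and 31.9% (with reads per library total in place of RPKM the central share was lower at 4 months), and the posterior genes 7.55 ± 1.94% and 3.99 ± 1.76% (SD, n = 3). The posterior share overlapped between the ages.

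Paralogs of the fourth group descend from a single ancestral gene. Over whole genes, the order of RPKM at PND2 was Hoxd4, then Hoxb4, then Hoxa4 in every library, and at 4 months it was Hoxb4, then Hoxa4, then Hoxd4. That order rests in part on reads in exons that overlap other genes. Exons kept because they touch no other gene held 28.2% of the exonic bases of Hoxd4, 36.1% of those of Hoxa4 and all of those of Hoxb4. An exon that overlaps in part was left out whole, so more bases than these can be free. On the kept exons alone Hoxd4 had 0.926, 0.197 and 0.864 RPKM at PND2, below Hoxb4 in all 3 libraries. The PND2 order there was Hoxb4, then Hoxd4, then Hoxa4. At 4 months Hoxd4 had 0.387, 0.556 and 0 RPKM there and Hoxa4 had 1.21, 0.437 and 0.30 RPKM, so Hoxd4 was above Hoxa4 in replicate 2. The change of place between Hoxd4 and Hoxb4 was thus seen over whole genes and not on the kept exons. The kept exons are unlike parts of the genes, all of Hoxb4 but 576 bases of Hoxa4 and 831 of Hoxd4. At PND2 those of Hoxa4 held 1, 0 and 1 of its 35, 62 and 38 reads. Whether the order depends on which exons were kept was not tested. In the third group, Hoxd3 was below Hoxa3 and Hoxb3 at each age by either measure. Over whole genes Hoxb3 and Hoxa3 had a mean log2 ratio of 0.05 at PND2 and -0.10 at 4 months. The kept exons held 10.8% of the exonic bases of Hoxa3 and 43.9% of those of Hoxb3. On them Hoxa3 was the higher in all 6 libraries, at 3.87 to 14.8 RPKM against 0.715 to 1.82 RPKM. These orders and ratios were chosen after the values were seen and are given without a test.

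The clusters hold 47 other annotated genes, 44 of them not protein-coding, of which 21 had no reads. The values show no use of strand in the counting: of opposite-strand exon pairs that overlap by at least 90% and have over 20 reads, 97.0 to 99.1% carried values within 20% of each other. Sense and antisense reads in the clusters therefore cannot be told apart where exons overlap. Of the 47 genes, 17 were tested by limma, 2 rose and 2 fell, or 23.5% called against 35.8% of all genes tested. Those that rose were 5730596B20Rik, which overlaps Hoxa3 (log2 fold change 0.78, adjusted p = 0.0415), and Gm11536, an antisense gene in Hoxb (1.13, adjusted p = 0.0356). Those that fell were Gm28230, the read-through over Hoxd3 and Hoxd4 (-0.91, limma adjusted p = 0.0305), and the lincRNA Haglr, with 19, 17 and 9 reads at PND2 and 0, 3 and 1 at 4 months (adjusted p = 0.0447). Haglr reached 0.1 RPKM at PND2 alone, so it was tested only through the age where it was higher. Its 4-month values were at the limit of detection, and its call is no separate support for a fall. Neither 5730596B20Rik nor Gm28230 has an exon free of overlap with other genes. Their reads cannot be assigned to them alone, and their calls are no separate support either. All 4 calls were lost without 4-month replicate 1 (adjusted p = 0.122, 0.100, 0.083 and 0.115 in that order) and without at least 4 of the other libraries in turn. Gm11536 and Haglr had means under 1 RPKM and were named after their values were seen.

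Hotairm1, an antisense RNA of the Hoxa cluster known to act in myeloid cells and neurons, had a higher mean RPKM than any Hox gene. None of its exons is free of overlap with other genes, so its reads cannot be assigned to it alone. It had 11.4, 11.9 and 14.0 RPKM at PND2 and 11.3, 7.21 and 10.1 RPKM at 4 months (log2 fold change -0.40, SE 0.19, limma adjusted p = 0.142). The ages did not overlap, by a narrow margin, and the change did not pass. Gm15050, antisense in the Hoxa3 region, had 7.39, 8.19 and 8.30 RPKM and then 9.46, 6.62 and 4.69 RPKM, and Hoxaas2 had 2.30, 3.59 and 3.05 RPKM and then 7.71, 3.26 and 4.44 RPKM, without passing. Short RNA models at or beside Hotairm1 (Gm27868, Gm27867, Gm27477 and Gm27861) ranged from 4.32 to 18.6 RPKM with none passing, although Gm27867 passed without 4-month replicate 1 (-0.81, limma adjusted p = 0.0374). The read-through Gm28308 over Hoxa2 and Hoxa3 and the antisense Gm29430 did not pass either (limma adjusted p = 0.635 and 0.163).

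Hoxb3os (chr11:96343072-96354691, minus strand), antisense to Hoxb2 and Hoxb3, had 3.73, 5.05 and 4.0 RPKM at PND2 and 8.0, 5.09 and 6.20 RPKM at 4 months (log2 fold change 0.57, limma adjusted p = 0.0756). Its exons free of overlap hold 254 of its 4201 exonic bases, and on them the rise passed (1.41, limma adjusted p = 0.00756). One of them (chr11:96343072-96343225) had 9, 12 and 16 reads at PND2 and 77, 27 and 46 at 4 months. The most abundant gene in any cluster was the processed pseudogene Gm11539, at 194, 201 and 231 RPKM and then 183, 120 and 154 RPKM (-0.48, limma adjusted p = 0.0576), a kind of gene whose reads can come from near-identical copies elsewhere. It passed without 4-month replicate 1 (-0.62, limma adjusted p = 0.0240).

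The clusters also hold microRNA genes whose products act on Hox transcripts. The mature sequences are shown, from RefSeq (GRCm38.p6), with the seed (bases 2 to 8) in capitals, to show the 2 seed families that lie between the Hox genes.
miR-10a-5p: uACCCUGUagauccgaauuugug
miR-10b-5p: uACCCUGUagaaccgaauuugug
miR-196a-5p: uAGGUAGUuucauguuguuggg
miR-196b-5p: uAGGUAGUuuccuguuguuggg
The hairpin of Mir10a, upstream of Hoxb4, had 1 read in each of 2 libraries at 4 months, Mir10b beside Hoxd4 had none, and Mir196a-1 had 4 reads in PND2 replicate 3 alone. Mature microRNAs are too short for libraries of this kind, so their levels were not measured here.

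Beyond the ends of the clusters, 19 of the 24 flanking protein-coding genes (3 on each side of each cluster) were tested by limma. Snx10 and Skap2 beside Hoxa and Nfe2l2 beside Hoxd rose. Cbx3, Cbx1, Atp5g2, Hnrnpa1, Atp5g3 and Mtx2 fell. The calls came to 15.8% higher and 31.6% lower, against 14.7% and 21.1% of all genes tested. The other 10 did not pass, of which Hibadh passed without 4-month replicate 1 (adjusted p = 0.0457) and Cbx5 without PND2 replicate 1 (0.0351). Skap2 and Atp5g2 lost their calls without any of 5 libraries in turn, up to adjusted p-values of 0.0914 and 0.121. Mtx2, 3′ of Hoxd1, had the largest change, from 34.8, 36.7 and 40.8 RPKM to 15.8, 20.1 and 16.7 RPKM (log2 fold change -1.09, adjusted p = 0.000758). Evx1 and Evx2, the homeobox genes at the posterior ends of Hoxa and Hoxd, had no reads in any library.

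Hox proteins bind DNA with TALE homeodomain partners of the Pbx, Meis and Pknox (Prep) families. Of 9 cofactor genes tested by limma, Pbx2 fell and 8 did not pass. Pbx2 had 29.4, 35.7 and 36.6 RPKM at PND2 and 17.8, 18.2 and 17.9 RPKM at 4 months, with no overlap (log2 fold change -0.91, SE 0.11, adjusted p = 0.00108). Over the 6 libraries Pbx3 had 6.07 to 7.89 RPKM, Pbx4 0.416 to 0.868, Meis1 8.18 to 11.1, Meis2 10.1 to 11.8, Meis3 13.4 to 17.0, Pknox1 4.61 to 5.84 and Pknox2 3.19 to 6.49 RPKM. At either age Meis1, Meis2 and Meis3 were each above every Hox gene in mean RPKM.

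Retinoic acid, which switches on anterior Hox genes through nuclear receptors, and the Cdx factors, which act on central ones, formed a list of 9 genes. Cdx2 and Cdx4 had no reads and Cdx1 had 0.0197 RPKM in a single library. Of the 6 receptors tested by limma, Rarg and Rxrg rose, Rara fell, and Rarb, Rxra and Rxrb did not pass. Rxra came close and passed without PND2 replicate 2 (limma adjusted p = 0.0524 and then 0.049). Rarg had 20, 23.4 and 19.9 RPKM at PND2 and 37.0, 31.4 and 40.4 RPKM at 4 months (log2 fold change 0.77, adjusted p = 0.00343). Rxrg went from 0.380, 0.656 and 0.789 to 5.62, 9.01 and 7.57 RPKM (3.43, adjusted p = 0.000314), and Rara from 13.3, 19.4 and 20.3 to 9.65, 8.21 and 9.23 RPKM (-0.94, adjusted p = 0.00662). The receptor genes thus moved in both directions.

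Polycomb proteins keep silent Hox genes off, and trithorax-type proteins keep active ones on. Among 15 Polycomb genes tested by limma, 2 rose, 7 fell and 6 did not pass. Ezh2, the main H3K27 methyltransferase of dividing cells, fell from 8.39, 9.65 and 7.18 to 2.21, 2.32 and 1.72 RPKM (log2 fold change -1.96, SE 0.19, adjusted p = 0.000447), while its relative Ezh1 rose from 11.2, 10.6 and 11.2 to 22.7, 19.7 and 19.9 RPKM (0.91, adjusted p = 0.000916). The chromobox genes Cbx2 and Cbx7, whose proteins can read the H3K27 mark, moved apart in the same way. Cbx2 fell from 5.72, 7.0 and 5.66 to 2.78, 1.66 and 2.13 RPKM (-1.47, limma adjusted p = 0.00281), and Cbx7 rose from 2.45, 2.22 and 2.23 to 26.5, 18.1 and 19.7 RPKM (3.15, adjusted p = 4.75e-05).

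Pcgf2 (log2 fold change -1.51), Rnf2 (-1.23) and Jarid2 (-0.78) also fell by more than 1.5-fold by limma, as did Suz12 and Phc1 by less. Pcgf2 and Rnf2 belong to the complex that marks histone H2A, and Jarid2 helps to place the methyltransferase complex. Of 7 trithorax-type genes, Men1, Wdr5 and Kdm6b fell, by at most 0.51 on the log2 scale, and 4 did not pass. Wdr5 was the most abundant of them, at 22.8, 27.4 and 25.9 RPKM and then 16.9, 18.3 and 18.2 RPKM (-0.50, limma adjusted p = 0.00979). The calls of Suz12, Phc1, Men1 and Kdm6b were each lost without any of 4 or 5 libraries in turn, with highest adjusted p-values of 0.071, 0.127, 0.103 and 0.078.

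**Figure D5:**
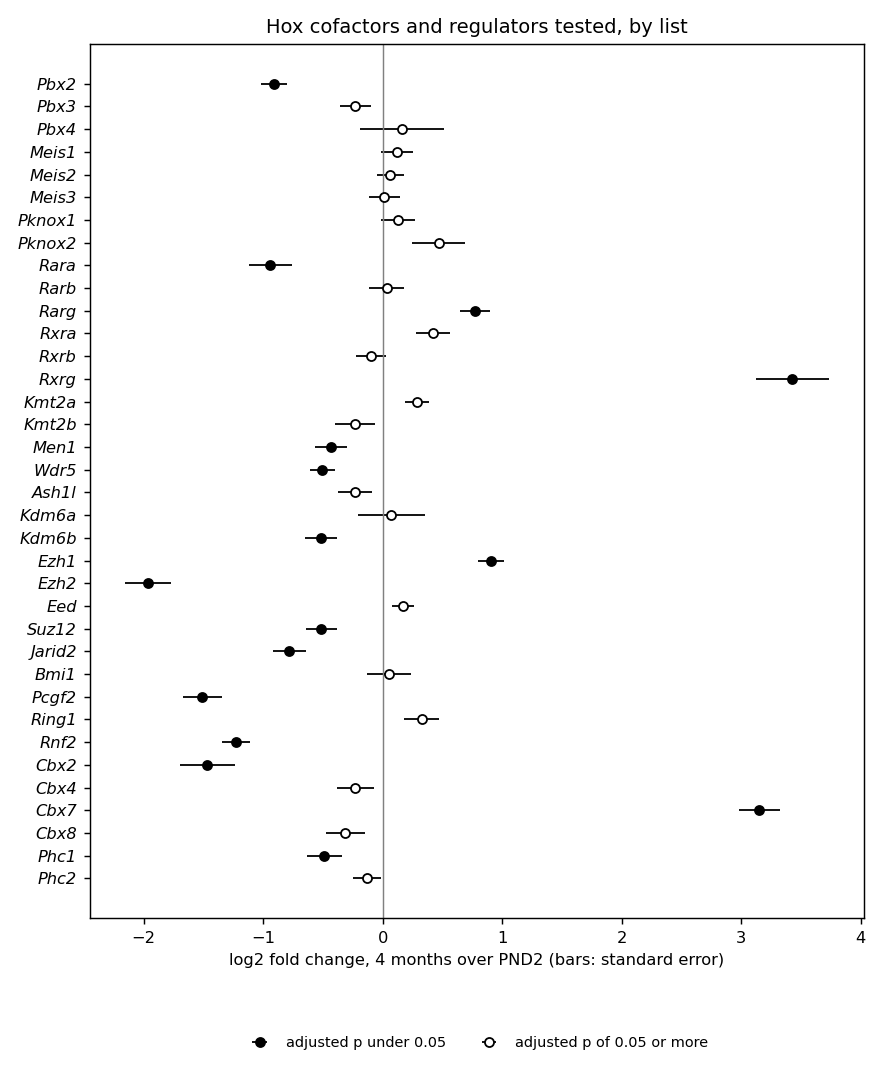
Log2 fold change from PND2 to 4 months (horizontal axis) of cofactor and regulator genes tested with limma, in the order cofactors, retinoic acid receptors, trithorax-type genes and Polycomb genes, with bars for the standard error and filled points for an adjusted p under 0.05. Ezh2, Pcgf2, Cbx2 and Rnf2 lie farthest left, and Rxrg and Cbx7 farthest right.

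The plot of regulators sets these values beside each other. Of the 37 genes tested 4 rose and 12 fell, against a background of 14.7% and 21.1% of all genes. The medians were 0.07 for cofactors, 0.23 for the receptors, -0.23 for trithorax-type and -0.31 for Polycomb genes, against -0.14 for all genes tested.

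Markers of the cell types that a dissected valve can hold were set beside the Hox values. The 6 valve interstitial markers were present at both ages, but their summed level was 4608 to 5082 RPKM at PND2 and 3374 to 4227 RPKM at 4 months. Of these, Postn, Col1a1, Col3a1 and Tcf21 fell by limma, Vim and Sox9 did not pass, and the median log2 fold change was -0.61. The summed level of 5 smooth muscle markers was 7130 to 8227 RPKM at PND2 and 16365 to 27379 RPKM at 4 months, and all 5 rose by limma. It was highest in 4-month replicate 1, the library that was also highest of the 6 for Hoxa2, Hoxa3, Hoxa4, Hoxb2, Hoxb3 and Hoxb4. The sum of 6 cardiomyocyte markers was 12533 to 15655 RPKM and then 5031 to 7859 RPKM, with 3 of 6 lower by limma, and all 5 endothelial markers fell, from 297 to 408 RPKM in sum to 179 to 196 RPKM. The sum of 6 adipocyte markers was 63.8 to 147 RPKM and then 322 to 1391 RPKM, with 5 of 6 higher and Cidec and Lep at 0 in all PND2 libraries. It was highest in 4-month replicate 2, which also had the most Hoxc and Hoxa7 reads. The part of these cell types in the Hox changes was not tested. Markers of neurons, which also use Hox genes, summed to 2.81 to 7.02 RPKM at PND2 and 1.63 to 5.99 RPKM at 4 months.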

How the data were processed

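Total RNA of mouse aortic valves (3 libraries at PND2 and 3 at 4 months, grouped by the source label) had been made into TruSeq stranded libraries and sequenced as paired reads. The authors aligned the reads to mm10 with TopHat2 2.1.0 and summarised them over Ensembl features with easyRNASeq in R 3.2.2. They deposited RPKM values per gene and per exon. Whole reads were recovered from RPKM, exonic length and library total for 100% of values above 0 (within 0.01 reads) and served for limits of detection. The mean of these totals, 31479753, is above the number of read pairs per sample that the study's methods give, so they were taken as totals of single reads, and both mates of a fragment may count.

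Genes that reached 0.1 RPKM in at least 3 libraries were compared with limma 3.58.1 (R 4.3.3, eBayes with trend) on log2(RPKM + 0.1), 2-sided, with Benjamini-Hochberg adjustment over all genes tested. The study's own per-gene unequal-variance test was an alternative, because 3 against 3 leaves it few degrees of freedom. Other alternatives were pseudocounts of 0.01 and 1, leaving the filter out or raising it to 1 RPKM, no trend, median-ratio scaling, quantile normalization, a replicate block, the study's floor of 10 and minimum of 50 reads, exons free of overlap, voom on the recovered reads, protein-coding genes alone, and leaving out each library. For sums and shares, reads per library total were used as well. The fit was tested on simulated data. Python 3.11.15 was used for tables and figures, with pandas 2.3.3, numpy 2.4.6, scipy 1.17.1 and matplotlib 3.10.9.

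The members, gene lists and tests were chosen with earlier results of these data known. Members with a mean of at least 1 RPKM at either age are described with all 6 values, as are those with an adjusted p under 0.05 and a fold over 2. Cofactors are named. The values of 2 genes that this rule covers are not reported here, although the counts and sums include them. Other regulators are named when they passed with a fold over 1.5, or are the most abundant or most changed of their list, and other genes of the clusters and their flanks when they averaged at least 1 RPKM. Genes named outside this rule are said to be, or are counted in full.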

Additional observations from a re-analysis of the deposited data

How the results depend on the processing

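Every tested Hoxb and Hoxd member kept its sign under each alternative in which it could be fitted. Against 2 Hox genes higher at 4 months in the main limma fit, the unequal-variance test and the replicate block gave 0 (2 members at an unadjusted p under 0.05 in each, 4 in the main fit), and median scaling and voom gave 4, with leave-one-out counts from 0 to 1. Where leaving out a library gave 0, 2 members (without PND2 replicate 1) and 3 (without 4-month replicate 1) had an unadjusted p under 0.05. Against 2 lower, no filter, the unequal-variance test, median scaling and overlap-free exons gave 1 each, and leave-one-out counts were 1 to 2. Under the block Hoxa4 and Hoxb4 lost their calls (adjusted p = 0.078 and 0.081), but the replicate numbers mark no shared animals and same-numbered libraries did not deviate together (correlations 0.044, -0.061 and -0.16), so the numbers were not taken to pair the libraries. Of regulators, 4 higher became 8 with median scaling and 7 with quantile normalization, and 12 lower became 4 with the unequal-variance test. Of other genes in and beside the clusters, 5 higher became 1 with the unequal-variance test and 2 with the block, with leave-one-out counts from 2 to 3. The 8 lower became 3 with the unequal-variance test and 5 with median scaling, with leave-one-out counts from 5 to 7. On overlap-free exons the ratio of summed Hox RPKM at 4 months to PND2 moved from 1.04 to 1.22 and that of Hoxa from 1.10 to 1.41. The share differences there were 8.43 percentage points for Hoxa (main 2.03), 6.04 for Hoxb (main 10.5) and -5.92 for posterior genes (main -3.56). With reads per library total the central share difference was -2.76 points (main 2.17). The cause of these moves was not tested, except that the overlap-free fit uses fewer bases by construction. Median scaling moved the median over all genes tested from -0.14 to -0.02 on the log2 scale. Depth limits members under about 0.1 RPKM, for which single reads decide the value.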
